A study of Mus musculus with 6 samples.

Results

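Rab genes encode small GTPases of the Ras superfamily, and they were taken here as every gene of the deposited count table whose symbol is Rab followed by a number and at most a letter and a digit. The rule found 59 genes of the 24421 in the table. A Rab protein switches between a GDP-bound and a GTP-bound form. Guanine nucleotide exchange factors (GEFs) turn it on, GTPase-activating proteins (GAPs) turn it off, and GDI proteins carry the inactive, prenylated form through the cytosol. In its active form each Rab recruits effectors to one kind of membrane, so that the family members together mark the steps of vesicle traffic, and in neurons the Rab3 proteins sit on synaptic vesicles.

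The mice carried Foxp2-Cre, and the nuclei came from their medial prefrontal cortex (mPFC). A virus injected into the mPFC on both sides delivered GFP fused to a KASH domain, which holds a protein in the nuclear envelope, and 4 weeks later the tissue was dissected and nuclei were sorted. The CFA group holds 3 libraries and the saline group 3. CFA, written only as an abbreviation in the labels, is the usual short form of complete Freund's adjuvant, an agent injected to produce lasting inflammatory pain, and saline is its control. All 6 libraries share the Foxp2-Cre allele and the KASH-GFP virus, and the labels call the sorted cells Foxp2 positive neurons. The time of CFA or saline before collection, the age of the mice and the number of mice behind a library were not found in the labels. The p-values below therefore measure the spread between libraries, which may be technical.

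Total counts ran from 9673038 to 11850741 per library, and Rab genes took 0.594 to 0.749% of them. A count of 3, the limit that a count of 0 allows, stood for 0.25 to 0.304 CPM (counts scaled to library size with TMM factors) and covers counting error only. Slc17a7, the vesicular glutamate transporter of cortical excitatory neurons, averaged 2279 ± 357 CPM in CFA and 2144 ± 177 in saline (SD, n = 3 each). Gad1 averaged 64.9 ± 18.8 and 60.2 ± 12.4, and Gad2 22.3 ± 8.57 and 19.05 ± 6.91 (both GABA synthesis). Foxp2 averaged 29.2 ± 5.50 and 33.8 ± 8.61. As CPM per kilobase of exon, averaged over the 6 libraries, Slc17a7 had 752, Gad1 19.4, Gad2 3.68 and Foxp2 4.45. Markers of layer 6 corticothalamic neurons (6 genes, Foxp2 among them) summed to 669 to 748 CPM in CFA and 726.5 to 804 in saline, which overlap. Of these genes, 1 had a fold change above 0 and 5 below, with 0 called. Marker genes of other cell types were also present. Summed markers of oligodendrocyte precursors (6 genes) ran from 30.8 to 43.7 CPM in CFA and from 18.4 to 27.6 in saline, with no overlap. Of that list Olig1 held the most, 20.7 CPM in CFA and 12.4 in saline on average, while Cspg4 went the other way, 1.75 and 3.77 CPM, also with no overlap. Microglial markers (9 genes) summed to 94.6 to 153 CPM in CFA and 76.1 to 110 in saline. Larger sums were found for astrocyte markers (8 genes), 465 to 655 and 468 to 538 CPM. Oligodendrocyte markers (8 genes) summed to 304 to 470 and 341 to 422 CPM. The part of these cells in any Rab value was not tested. Saline replicate 3 stood apart from the other libraries for Rab genes, as described below. For the family and some Rab genes, values are also given without it. Single genes that act on Rab proteins are given only with all 6 libraries.

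Of the 59 Rab genes, 51 had enough counts to be tested. Rab17 and Rab44 had no count in any library. Rab7b, Rab19, Rab20, Rab25, Rab37 and Rab38 held at most 21 counts in any library, and these 8 genes were not tested. Levels are compared between Rab genes only per length, as RPKM (CPM per kilobase of exon), averaged over the 6 libraries. Rab3a, the main Rab of synaptic vesicles, had the highest level at 569 RPKM. Rab26, which has been placed on secretory granules and synaptic vesicles, followed at 329, Rab6a of the Golgi at 260, Rab2a of traffic between endoplasmic reticulum (ER) and Golgi at 210, and Rab14 of the endosomes and trans-Golgi at 131. This order of 5 held in 6 of 6 libraries. Below it the neighbours were closer. Rab7, the late endosome Rab, had 126 RPKM and exceeded Rab14 in 3 of the 6 libraries, and Rab24, linked to autophagy, had 123.2.

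The next levels were 95.5 for Rab1b and 92.1 for Rab1, both of ER-to-Golgi transport, and 88.4 for Rab11a of the recycling endosome. The first 5 genes held 49.9% and the first 10 held 67.4% of the family's summed level. Levels of at least 100 RPKM were reached by 7 genes, levels from 10 to 100 by 29, and 15 tested genes lay below 10. By trafficking step, the genes of regulated exocytosis held 32.1% of the summed level on average, those of ER and Golgi traffic 29.5% and those of the recycling endosome 15.2%. The remaining steps held 4.56 to 7.93% each, and the highest of these, the early endosome, was counted with Rab24. The share of the exocytosis genes was 30.3 to 33.2% in CFA and 31.9 to 34.6% in saline, which overlap.

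**Figure D1:**
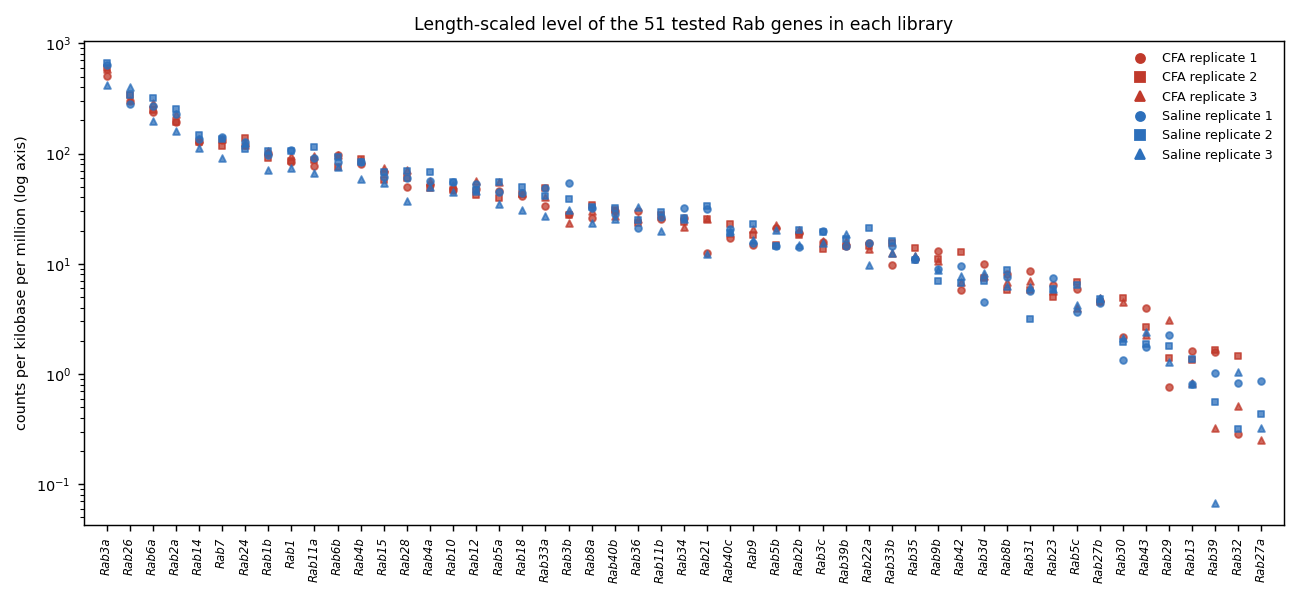
Level of each tested Rab gene in every library, in RPKM on a log axis, with the genes ordered by their mean over 6 libraries; values of 0 (Rab27a in CFA replicates 1 and 2) cannot be drawn. Rab3a stands at the top with a mean of 569, and the groups overlap for all but 4 genes (Rab3b, Rab9b, Rab30 and Rab27a).

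No Rab gene passed the test between CFA and saline. With edgeR's quasi-likelihood test and p-values adjusted over the 13560 genes tested, 0 of 51 Rab genes and 0% of all genes had an adjusted p under 0.05, and the smallest adjusted p of a Rab gene was 1. An unadjusted p under 0.05 was found for 4 Rab genes (7.84%), beside 3.22% of all genes (437). Rab9b and Rab30 had higher values in CFA, and Rab3b and Rab27a lower ones. The same 4 genes were those whose CFA and saline values did not overlap, again 7.84% of the 51, beside 7.51% of all genes. DESeq2, edgeR's likelihood ratio test and limma-voom also called 0 Rab genes, and over all genes they called 5, 11 and 0. In the same order, 4, 4 and 3 Rab genes had an unadjusted p under 0.05 (7.84, 7.84 and 5.88%). The shares of all genes were 3.37, 3.75 and 3.46%. Fewer cells of a type and less RNA per cell cannot be told apart in these bulk libraries.

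Fold changes of most Rab genes were near 0. Log2 fold changes, CFA minus saline, had a median of 0.02 over the 51 genes and -0.0011 over all genes tested, with 28 Rab genes above 0 and 23 below. In 40 of the 51 (78.4%) the fold change lay within 0.25 of 0, beside 66.9% of all genes. Among genes at 20 CPM or more the shares were closer, 85.7% of 42 Rab genes and 82.6% of all genes. The 95% interval held 0 for 47 Rab genes. It lay wholly between -1 and 1 for 40 of the 51 (78.4%), beside 69.4% of all genes, while smaller ones were not resolved with 3 libraries a group.

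**Figure D2:**
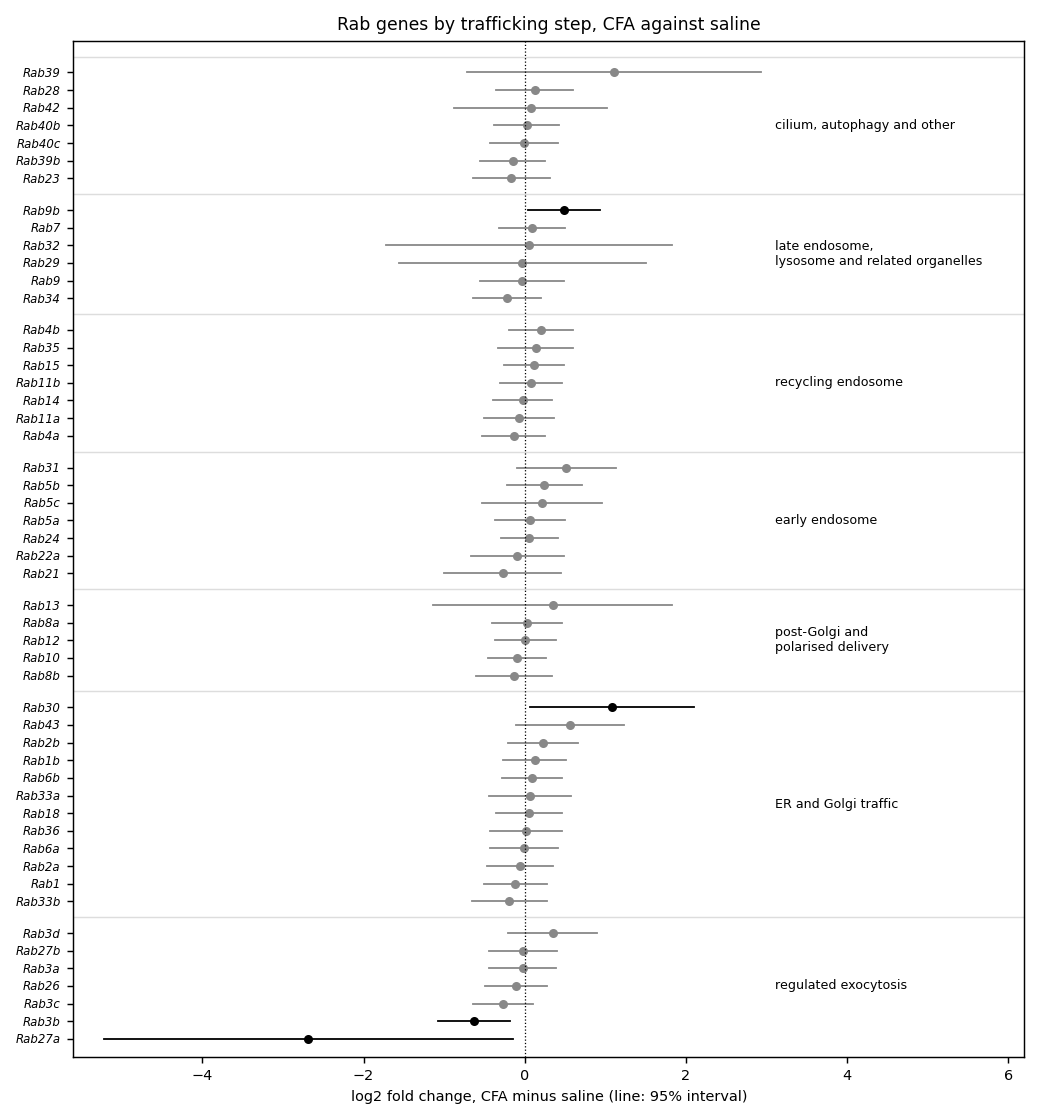
Log2 fold change (CFA minus saline) of the 51 tested Rab genes with 95% intervals, grouped by trafficking step; black marks the 4 genes with an unadjusted p under 0.05. Most points lie near 0, and the widest interval is that of Rab27a, from -5.22 to -0.15.

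Among the genes of regulated exocytosis, 1 of the 7 tested had a fold change above 0 and 6 had one below 0, with a median of -0.11 and 0 called. The Rab3 proteins act at docking and release of synaptic vesicles. Their promoter sequences are shown because the 4 Rab3 genes span levels from 569 RPKM (Rab3a) to 33.8 (Rab3b), 16.8 (Rab3c) and 7.48 (Rab3d), and Rab3b had the smallest p of the family. Each is the 250 bases before the RefSeq start, in build GRCm38.p6 (the assembly that mm10 names), written 5′ to 3′ on the gene's strand, at chr8:70754453-70754702 (plus strand) for Rab3a, chr4:108878820-108879069 (plus) for Rab3b, chr13:110280207-110280456 (minus) for Rab3c and chr9:21918184-21918433 (minus) for Rab3d. Capitals mark matches, on either strand, of the SP1 box GGGCGG, the CCAAT box, the TATA box TATAAA, the E-box CACGTG and the cAMP response element TGACGTCA.
Rab3a: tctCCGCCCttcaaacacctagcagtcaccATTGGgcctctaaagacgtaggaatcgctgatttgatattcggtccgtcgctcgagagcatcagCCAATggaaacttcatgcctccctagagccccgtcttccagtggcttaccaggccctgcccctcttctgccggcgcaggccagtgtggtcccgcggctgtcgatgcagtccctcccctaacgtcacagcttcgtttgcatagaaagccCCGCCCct
Rab3b: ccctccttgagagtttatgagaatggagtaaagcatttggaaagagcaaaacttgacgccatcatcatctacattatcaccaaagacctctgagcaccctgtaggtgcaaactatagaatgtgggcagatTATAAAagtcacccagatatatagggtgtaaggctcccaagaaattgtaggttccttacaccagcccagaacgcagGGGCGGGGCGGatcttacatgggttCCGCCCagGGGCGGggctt
Rab3c: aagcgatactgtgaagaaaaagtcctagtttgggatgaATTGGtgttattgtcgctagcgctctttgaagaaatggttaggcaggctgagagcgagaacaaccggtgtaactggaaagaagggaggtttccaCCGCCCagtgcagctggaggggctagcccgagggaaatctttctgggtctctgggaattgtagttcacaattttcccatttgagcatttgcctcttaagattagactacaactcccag
Rab3d: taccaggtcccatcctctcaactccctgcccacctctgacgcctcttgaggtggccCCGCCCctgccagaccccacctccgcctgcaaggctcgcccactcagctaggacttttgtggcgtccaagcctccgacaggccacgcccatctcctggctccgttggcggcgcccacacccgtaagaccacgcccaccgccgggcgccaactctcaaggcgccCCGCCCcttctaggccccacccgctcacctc

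Of the bases shown, 24 for Rab3a, 7 for Rab3b and 9 for Rab3d lie in annotated exons. The last SP1 box of Rab3a lies inside its counted gene, which starts at chr8:70754679. These 4 windows differ in their matches. Rab3a held 2 SP1 boxes and 2 CCAAT boxes at 58.8% GC, and Rab3b held 4 SP1 boxes, a pair of which overlap, and was the only one of the 4 with a TATA box, at 48.8% GC. Rab3c held 1 SP1 box and 1 CCAAT box at 47.6% GC, and Rab3d 2 SP1 boxes at 69.2% GC. RefSeq starts were matched for 48 of the 59 Rab genes (Rab1 under the symbol Rab1a), with 1 start kept per gene. They are set beside all 32851 starts, which were neither cut to 1 per gene nor limited to tested genes. The sets are therefore unlike. An SP1 box lay in 33 of the Rab windows (68.8%), beside 32.7% of the windows of all starts. A CCAAT box lay in 45.8% beside 33.8%, a TATA box in 8.33% beside 12.4%, an E-box in 8.33% beside 6.02% and a cAMP response element in 4.17% beside 1.55%. Rab windows also had more GC, with a median of 60.6% beside 52.4%. The parts of base composition and of the choice of starts in the SP1 share were not tested. A match is a description of the letters and not a binding site.

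Rab3b (chr4:108879070-108943324, mm10), a Rab3 of secretory and some neuronal vesicles, had 93.7, 92.6 and 78.1 CPM in CFA replicates 1 to 3 and 178, 128 and 102 in saline replicates 1 to 3. All 3 CFA values lay below all 3 saline values, and saline replicate 1 was the highest. The log2 fold change was -0.63 ± 0.21 (SE), with a 95% interval from -1.07 to -0.18 and an unadjusted p of 0.00884 in edgeR (adjusted p of 1). Without saline replicate 1 it was -0.39 with an unadjusted p of 0.0724. Without saline replicate 3 it was -0.80, with an unadjusted p of 7e-04 and an adjusted p of 0.299. Markers of striatal projection neurons (7 genes) also had their highest value in saline replicate 1. They summed to 374, 200 and 254 CPM in CFA and 804, 391.5 and 299 in saline, and their part in the Rab3b values was not tested. A gene on the opposite strand, 8030443G20Rik, shares 317 exon bases with Rab3b and had 0 counts in every library.

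Rab3a had 732, 870 and 852 CPM in CFA and 921, 968 and 610 in saline. Its groups overlap, with saline holding both the highest and the lowest library, and its log2 fold change was -0.03 (95% interval -0.44 to 0.39). Rab3c (chr13:110054187-110280206), a close relative of Rab3a on vesicles, had 135, 115 and 138 CPM in CFA and 169, 167 and 132 in saline. Saline replicate 3 lay among the CFA values, and the log2 fold change was -0.27 ± 0.18 (unadjusted p of 0.142 in edgeR). Without saline replicate 3 it was -0.38 with an unadjusted p of 0.0333. Rab3d, best known from exocrine secretion, had 38.4, 28.5 and 30.2 CPM in CFA and 17.3, 26.99 and 32.2 in saline, which overlap, with a log2 fold change of 0.34 ± 0.26. Leaving out 1 library gave 0.13 (without saline replicate 1) to 0.55 (without saline replicate 3).

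As shares of the summed Rab3 level per length, Rab3a held 88.5 to 92.5% in the 6 libraries. Rab3b held 5.06, 4.30 and 3.70% in CFA and 7.53, 5.28 and 6.48% in saline, so that its share was lower in every CFA library than in every saline library. Rab3c held 2.08 to 2.84% in CFA and 2.68 to 3.26% in saline, and these overlap.

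Rab27a and Rab27b act in docking of secretory granules and lysosome-related organelles, and Rab27b is known from synaptic vesicles. Rab27a (chr9:73044810-73097614) was close to the detection limit, with 0, 0 and 9 counts in CFA and 33, 16 and 11 in saline, or 0, 0 and 0.865 CPM against 2.95, 1.48 and 1.11. The fitted log2 fold change was -2.69 ± 1.19, with an unadjusted p of 0.0394 in edgeR, and depends on the prior count since a pair of CFA libraries had none. Its unadjusted p was 0.131 without CFA replicate 1, 0.133 without CFA replicate 2, 0.149 without saline replicate 1 and 0.0612 without saline replicate 2. It was 0.0443 without saline replicate 3. Without CFA replicate 3, which left CFA libraries with 0 counts only, it was 0.00253 and the fitted value was -7.36. Rab27b had 34.4, 33.6 and 36.9 CPM in CFA and 33.5, 36.4 and 36.9 in saline. Its 6 libraries lay between 33.5 and 36.9 CPM, with the groups overlapping and a log2 fold change of -0.02 (95% interval -0.45 to 0.40). Rab26 (chr17:24529054-24533747) had 431, 491 and 442 CPM in CFA and 403, 488 and 577 in saline, with saline replicate 3 the highest and a log2 fold change of -0.11.

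**Figure D3:**
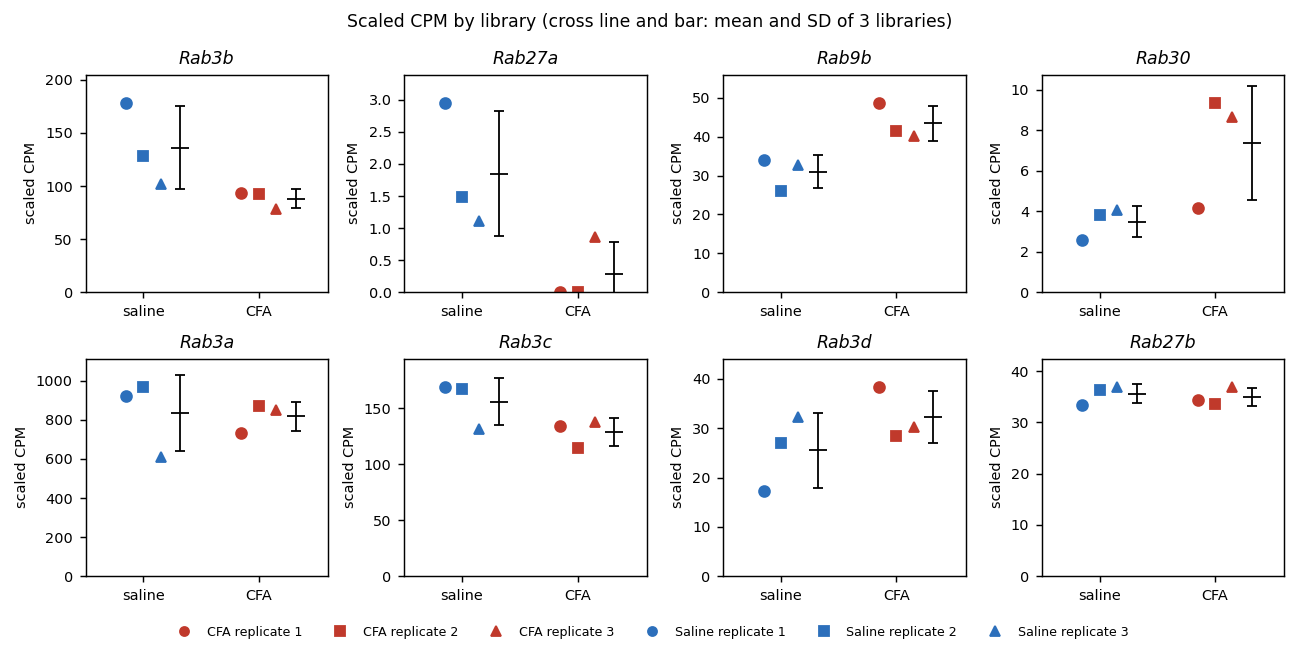
Scaled CPM of selected Rab genes in each library, with the mean and SD of each group (n = 3 each); SD bars that would pass below 0 stop there. CFA and saline points are separate for Rab3b, Rab9b, Rab30 and Rab27a and overlap in the other genes.

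In ER and Golgi traffic 12 genes were tested, 8 with a fold change above 0 and 4 below, with a median of 0.06. Rab30 (chr7:92741714-92837117), a Golgi Rab, had 4.16, 9.35 and 8.65 CPM in CFA and 2.59, 3.80 and 4.05 in saline. The lowest CFA library lay just above the highest saline library. The log2 fold change was 1.08 ± 0.47 (95% interval 0.07 to 2.10, unadjusted p of 0.0382 in edgeR). The unadjusted p was 0.146 without CFA replicate 2, 0.126 without CFA replicate 3 and 0.0937 without saline replicate 1. It was 0.0158 without CFA replicate 1, 0.0499 without saline replicate 2 and 0.0368 without saline replicate 3. Rab43 (chr6:87788853-87812164), also of the ER and Golgi, had 19.2, 13.0 and 11.1 CPM in CFA and 8.59, 9.09 and 11.7 in saline, with a log2 fold change of 0.56 ± 0.31 and an unadjusted p of 0.0949. Without CFA replicate 1 it was 0.29. Its groups overlap through 1 library on each side.

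The abundant Golgi Rabs had fold changes near 0. Rab6a (chr7:100607586-100641268), which acts in transport within and from the Golgi, had 784, 833 and 958 CPM in CFA and 893, 1053 and 649 in saline, with a log2 fold change of -0.01 (95% interval -0.43 to 0.41). Rab2a had 394, 402 and 471 CPM in CFA and 474, 517 and 331 in saline, with a log2 fold change of -0.06. In both, saline held both the highest and the lowest of the 6 values. Rab1 had 221, 229 and 255 CPM in CFA and 288, 278 and 198 in saline, with a log2 fold change of -0.12. Rab1b, its close paralogue, had 186, 169 and 194 CPM in CFA and 180, 192 and 131 in saline, with one of 0.12. Rab33b, a Golgi Rab tied to autophagy, had 33.9, 53.9 and 43.7 CPM in CFA and 50.3, 56.1 and 43.6 in saline, with one of -0.19, which ran from -0.37 without CFA replicate 2 to -0.04 without CFA replicate 1. The groups of these 3 genes overlap too.

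Among early endosome genes, counted with Rab24, 5 of 7 had a fold change above 0 and 2 below, with a median of 0.06. Rab5 proteins direct fusion of early endosomes. Rab5a had 109, 94.2 and 131 CPM in CFA and 106, 131 and 83.1 in saline (log2 fold change 0.06). Rab5b had 67.6, 47.5 and 70.9 CPM in CFA and 46.4, 46.6 and 64.5 in saline (0.24). Rab5c had 11.6, 13.6 and 7.88 CPM in CFA and 7.25, 12.8 and 8.41 in saline (0.22), and leaving out 1 library gave 0.04 (without CFA replicate 2) to 0.50 (without saline replicate 2). The groups overlap in each, and Rab5a held 58.9 to 72.5% of the summed Rab5 level per length. Rab31, an endosomal Rab related to Rab22a, had 30.1, 20.02 and 24.3 CPM in CFA and 19.7, 10.9 and 21.6 in saline, with a log2 fold change of 0.51 ± 0.29 and an unadjusted p of 0.095 in edgeR. Without saline replicate 3 it was 0.70 with an unadjusted p of 0.0366, and without saline replicate 2 it was 0.27 with one of 0.339. Rab21, an endosomal Rab of integrin traffic, had 23.0, 46.5 and 46.5 CPM in CFA and 57.0, 60.7 and 22.4 in saline. CFA replicate 1 and saline replicate 3 lay well below the rest, and the log2 fold change of -0.27 was -0.61 without saline replicate 3 (unadjusted p of 0.0379), -0.01 without CFA replicate 1 (0.969), -0.04 without saline replicate 2 (0.922) and -0.11 without saline replicate 1 (0.772). Rab24 had 222, 260 and 221 CPM in CFA and 237, 205 and 233 in saline, which overlap, with one of 0.06.

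Of the recycling endosome genes 4 of 7 had a fold change above 0 and 3 below, with a median of 0.08 (log2). Rab11a, which returns receptors to the surface, had 180, 203 and 221 CPM in CFA and 211, 268 and 155 in saline (-0.07). Rab11b, its paralogue, had 153, 168 and 163 CPM in CFA and 162, 177 and 120 in saline (0.08). Rab14 (chr2:35180205-35201120) had 390, 396 and 416 CPM in CFA and 422, 454 and 348 in saline (-0.03). In all 3 genes the CFA libraries lay between the lowest and the highest saline library.

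Late endosome and lysosome genes had 3 fold changes above 0 and 3 below. Rab9b (chrX:136858151-136868540), a paralogue of the Rab9 that acts between late endosomes and the trans-Golgi, had 48.7, 41.4 and 40.3 CPM in CFA and 33.9, 26.1 and 32.8 in saline. Every CFA library was above every saline library, and the log2 fold change was 0.49 ± 0.21 (95% interval 0.05 to 0.93, unadjusted p of 0.0331 in edgeR). Without saline replicate 2 it was 0.38 with an unadjusted p of 0.12, and without CFA replicate 1 it was 0.39 with one of 0.135. With any other library left out the unadjusted p ran from 0.0271 to 0.0487. Rab7 (chr6:87999106-88045270) had 350, 309 and 359 CPM in CFA and 367, 352 and 239 in saline, with a log2 fold change of 0.09. Of its 50-base transcript windows, 11.4% also occur in an annotated transcript of another locus, mainly the pseudogene Rab7-ps1. Its count is therefore uncertain, by an amount that was not tested. The same holds for Rab5b (9.8%, mainly Gm13991) and Rab11b (9.49%, mainly Rab11b-ps2). Rab34, tied to lysosome position and cilia, had 47.2, 43.2 and 38.8 CPM in CFA and 58.2, 46.8 and 46.0 in saline, which overlap, with one of -0.22.

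In the last groups, post-Golgi and polarised delivery had 5 genes tested (3 above 0, 2 below) and cilium, autophagy and other steps 7 (4 above, 3 below), with 0 at an unadjusted p under 0.05. Rab39, linked to autophagy, had 4.74, 4.94 and 0.961 CPM in CFA and 3.04, 1.67 and 0.203 in saline, with a log2 fold change of 1.10 ± 0.85, and its interval held 0. Leaving out 1 library gave 0.59 (without saline replicate 3) to 1.90 (without saline replicate 1). The 24 tested Rab genes not given by library ran from 1.49 to 425 CPM as group means, with log2 fold changes from -0.17 to 0.35 and unadjusted p-values of 0.284 or more. In 23 of these 24 the fold change lay within 0.25 of 0.

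Ratios between close paralogues were computed for 17 pairs, which were chosen after values had been seen and are given with no test. The ratio of Rab3a to Rab3b per length was 17.9 to 24.98 in CFA and 11.8 to 17.3 in saline. The ratio of Rab1 to Rab1b was 0.820 to 0.937 in CFA and 0.998 to 1.11 in saline. That of Rab4a to Rab4b, recycling endosome Rabs, was 0.546 to 0.653 in CFA and 0.679 to 0.842 in saline. With Rab27b to Rab27a, these were the 4 pairs of 17 whose groups did not overlap. Rab3b and Rab27a already had separate groups as single genes, so their ratios partly restate those values. Rab1, Rab1b, Rab4a and Rab4b each had overlapping groups as single genes. The ratio of Rab27b to Rab27a has no finite value in the CFA libraries with no Rab27a count. A background share for ratios of other gene pairs was not computed, so the count of 4 is a description only. Rab2a, Rab6a, Rab8a, Rab11a and Rab33a each exceeded their b paralogue in 6 of 6 libraries.

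**Figure D4:**
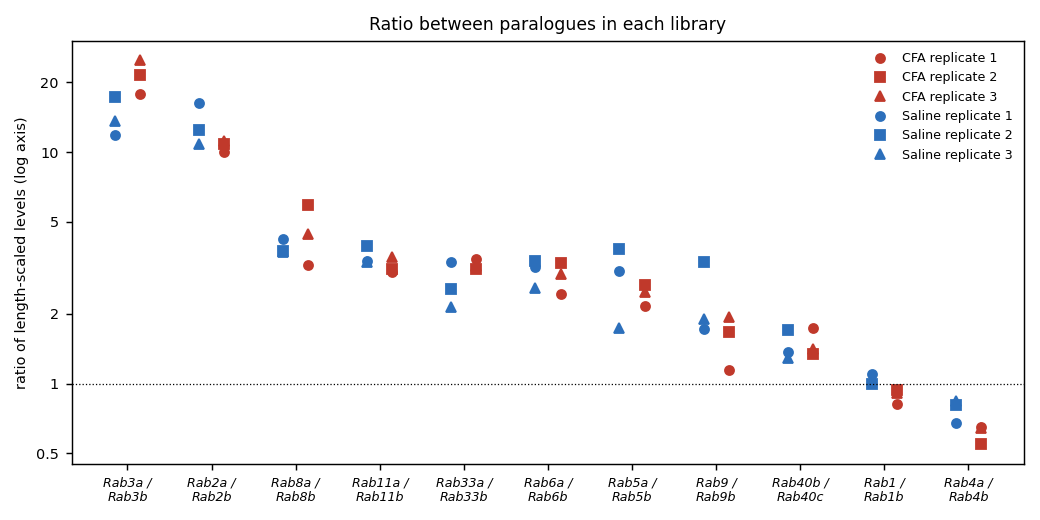
Ratio of the length-scaled levels of close Rab paralogues in each library on a log axis, by group. The groups are separate for Rab3a over Rab3b (17.9 to 24.98 in CFA, 11.8 to 17.3 in saline), Rab1 over Rab1b and Rab4a over Rab4b, and overlap in the other pairs drawn.

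Saline replicate 3 had low values for Rab genes as a family. Summed Rab CPM was 6597, 6754 and 7242 in CFA (mean 6865 ± 336, SD) and 7210, 7725 and 5819 in saline (6918 ± 986), so that the family sum did not separate the groups. This library held the lowest value of 23 of the 51 Rab genes (45.1%) and the highest of 3 (5.88%), Rab26, Rab36 and Rab39b, beside 23.7% and 23.9% of all genes. The median log2 ratio of this library to the other saline libraries was -0.31 over the Rab genes and -0.0124 over all genes. Without it, 7 Rab genes had an unadjusted p under 0.05 (Rab3b, Rab9b, Rab3c, Rab31, Rab30, Rab21 and Rab27a), 31 of 51 fold changes were below 0 and the median was -0.07, with 0 called. These 7 are 13.7% of the Rab genes, and without this library 6.75% of all genes had such a p, beside 3.22% with it.

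Transcript length moved with this library. Over all genes, saline replicate 3 was lowest for 35.8, 29.7, 20.2 and 9.0% of genes in 4 equal classes from the shortest to the longest exon length, and highest for 13, 17.6, 25 and 40%. Rab genes had a median exon length of 2466 bases, beside 2982 over all genes, and within the family it was lowest for 13 of the 26 shorter genes (50%) and 10 of the 25 longer ones (40%). Malat1, a long nuclear RNA, had 27109 CPM in saline replicate 3 and 13906 to 21807 in the others. The part of length and of nuclear RNA in the low Rab values was not tested.

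**Figure D5:**
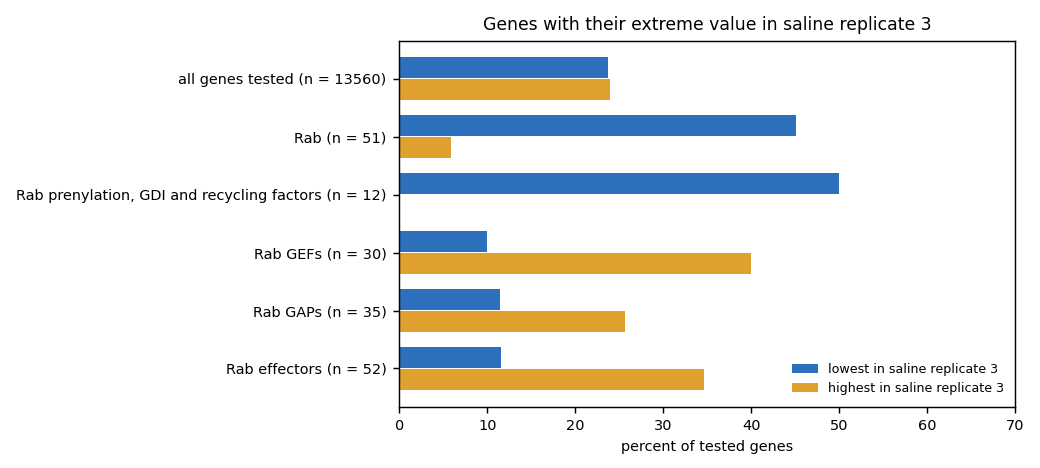
Percentage of genes for which saline replicate 3 was the lowest or the highest of the 6 libraries, for the Rab genes, the lists of Rab regulators and effectors and all genes tested. The library was lowest for 45.1% of Rab genes and 23.7% of all genes.

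Genes that act on Rab proteins were read from 6 lists of 155 genes, of which 137 were tested. None was called with edgeR's quasi-likelihood or likelihood ratio test, DESeq2 or limma-voom. In the first of these 68 had fold changes above 0 and 69 below, 3 (2.19%) had an unadjusted p under 0.05 beside 3.22% of all genes, and the groups did not overlap for 7 (5.11%) beside 7.51%. Among 35 tested GAPs, 18 had a fold change above 0, with a median of 0.01. Tbc1d24, a TBC-domain protein of synaptic vesicle traffic, had 152, 109 and 122 CPM in CFA and 69.5, 100 and 109 in saline (log2 fold change 0.46 ± 0.20, unadjusted p of 0.0398). Tbc1d14, which binds the Rab11 machinery of autophagy, had 74.7, 64.7 and 74.1 CPM in CFA and 51.3, 57.7 and 53.4 in saline (0.40 ± 0.18, unadjusted p of 0.0449). In both, every CFA library was above every saline library.

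Among 30 tested GEFs, 17 had a fold change above 0, with a median of 0.03 and the smallest p for Dennd5b and Rin2. Dennd5b had 62.8, 51.9 and 49.99 CPM in CFA and 69.6, 57.2 and 88.7 in saline (log2 fold change -0.39, p of 0.0814 in edgeR). Rin2 had 13.5, 18.7 and 24.3 CPM in CFA and 7.61, 18.5 and 10.03 in saline (0.64, p of 0.0841). The groups overlap in both. Among 52 tested effectors, 27 had one above 0. Rph3al (Noc2), which binds Rab3 and Rab27 on secretory granules, had 0.333, 0 and 0.192 CPM in CFA and 1.16, 1.11 and 1.22 in saline, near the limit that a count of 0 allows in CFA (fitted log2 fold change -2.65, unadjusted p of 0.0251). Gcc2, a golgin that binds Rab6, had 65.6, 86.8 and 66.0 CPM in CFA and 90.5, 109 and 87.4 in saline (-0.39 ± 0.19, unadjusted p of 0.0534). Both were lower in every CFA library.

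The 12 prenylation, GDI and recycling factors had fold changes between -0.15 and 0.11, with 4 above 0 and 8 below. Their median was -0.04 with all libraries and -0.13 without saline replicate 3. Rabif had 54.2, 59.2 and 61.9 CPM in CFA and 72.7, 68.8 and 52.6 in saline (log2 fold change -0.15, p of 0.455 in edgeR). Gdi2 had 176, 199.5 and 200.6 CPM in CFA and 238, 231 and 162 in saline (-0.13, p of 0.486). These were the smallest p-values of the list, and in both genes the groups overlap only through saline replicate 3, the lowest library. As for the Rab genes, saline replicate 3 was the lowest library for 50% of this list and the highest for 0%, while it was the lowest for 10% and the highest for 40% of the GEFs, whose median exon length is 5234 bases. Of the phosphorylation genes 3 were tested. Ppm1h had 44.5, 32.01 and 40.7 CPM in CFA and 41.7, 31.8 and 57.6 in saline (-0.16, p of 0.515). Ppm1m had 18.3, 16.1 and 12.8 CPM in CFA and 16.9, 6.95 and 17.7 in saline (0.18, p of 0.598). Both are phosphatases of one family of which Ppm1h acts on Rabs phosphorylated by LRRK2. Of the Rab-like genes 5 were tested and all 5 had fold changes below 0, with a median of -0.13. Rabl6 had 109, 109.5 and 107 CPM in CFA and 119, 115 and 124 in saline, lower in every CFA library (-0.14, p of 0.397). Rabl3 had 11.7, 12.6 and 9.52 CPM in CFA and 14.9, 13.1 and 11.8 in saline, which overlap (-0.23, p of 0.432).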

How the data were processed

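RNA was measured in 6 libraries, 3 CFA and 3 saline, grouped by sample title. Per the labels' protocols, RNA of 10000 sorted nuclei went into each library with Smart-seq V4 and 9 PCR cycles. The authors deposited raw counts per gene with exon intervals and lengths, per the file headers. The submitters' processing notes name featureCounts 2.0.1, SAMtools 1.13, HISAT2 2.2.1, edgeR 3.32.1 and Trim Galore, with build mm10. How strand and multiply mapped reads were set was not found in the labels, and the kits do not mark strand. Exons of 8 Rab genes overlap a gene on the opposite strand (Rab10, Rab20, Rab22a, Rab2b, Rab3a, Rab3b, Rab5a and Rab6a). Reads in the shared bases cannot be told apart by strand. The shared stretch ran from 15 bases (Rab10) to 317 (Rab3b), with 38 for Rab3a and 106 for Rab6a. Of the 51 tested Rab genes, 33 shared no 50-base window with an annotated transcript of another locus. The rest of the genome was not searched.

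All 13560 genes that passed filterByExpr were fitted with edgeR 4.0.16 (R 4.3.3; TMM scaling, quasi-likelihood test, treatment as the only term, Benjamini-Hochberg, threshold 0.05), and only Rab and related genes are printed. The procedure was tested on simulated data. Standard errors come from the F statistic. The common biological coefficient of variation was 26.8%. No 2 libraries agreed within sampling noise (lowest chi-square per degree of freedom 16.4). Same-numbered libraries did not deviate together, so replicate numbers were not used as pairs.

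The members and lists were chosen with earlier results of these data known. Genes given by library are the 10 Rab genes of highest level, the 6 of smallest p in each direction, those whose groups do not overlap and the Rab3, Rab27, Rab5 and Rab11 genes, and from each list of related genes the 2 of smallest p. Alternatives were other scalings, filters and tests (DESeq2 1.42.0, limma-voom in limma 3.58.1, likelihood ratio), a replicate block and each library left out. Promoter windows came from RefSeq.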

Additional observations from a re-analysis of the deposited data

How the results depend on the processing

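No Rab gene was called under any alternative run, and the smallest adjusted p of a Rab gene was 0.299, for Rab3b without saline replicate 3. Over all genes, 0 were called in the reported analysis, 9 with no low-count filter, 5 with DESeq2, 11 with the likelihood ratio test, 6 with the replicate block and 0 to 5 when 1 library was left out. Rab genes at an unadjusted p under 0.05 numbered 4, and 2 with a filter of 5 CPM in 3 libraries, 2 with the replicate block and 1 (without saline replicate 1) to 7 (without saline replicate 3) when 1 library was left out. The shares of all genes were 3.22%, 3.03%, 2.7%, 3.91% and 6.75% in the same order. Rab30 and Rab27a did not pass the filter of 5 CPM, which left 45 Rab genes. Rab3b and Rab9b kept an unadjusted p under 0.05 there (0.0074 and 0.036 in edgeR). The cause of the other differences was not tested. Over the alternatives for all 27 Rab genes given by library, including those not near 0, the fold change had the opposite sign in 22 of 375 values. For Rab6a it was 0.01207 with limma-voom and 0.01013 with the replicate block. With 1 library left out, log2 fold changes ran from -0.25 to 0.14 for Rab11a, -0.07062 to 0.20 for Rab11b, -0.13 to 0.06026 for Rab14, -0.02413 to 0.23 for Rab1b, -0.02447 to 0.10 for Rab24, -0.23 to 0.03002 for Rab26, -0.06861 to 0.0039 for Rab27b, -0.23 to 0.0702 for Rab2a, -0.21 to 0.10 for Rab3a, -0.08965 to 0.24 for Rab5a, -0.18 to 0.16 for Rab6a and -0.08207 to 0.20 for Rab7. They kept their sign but also moved for Rab1 (-0.27 to -0.02), Rab34 (-0.30 to -0.11) and Rab5b (0.14 to 0.42). The same held for Rab21 (-0.61 to -0.01), Rab33b (-0.37 to -0.04), Rab3b (-0.80 to -0.39), Rab3c (-0.38 to -0.19) and Rab27a (-7.36 to -2.09). Above 0 it held for Rab5c (0.04 to 0.50), Rab3d (0.13 to 0.55), Rab31 (0.27 to 0.70) and Rab43 (0.29 to 0.72). It also held for Rab39 (0.59 to 1.90), Rab9b (0.38 to 0.56) and Rab30 (0.87 to 1.36). Counting depth limits Rab27a, Rab32, Rab29, Rab13 and Rab39.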
